A study of Astyanax mexicanus with 26 samples.

Results

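Active promoter-like regions of surface fish were those that carried H3K4me3 and H3K27ac in the livers of surface fish and neither mark in the livers of cave fish. Joining H3K4me3 peaks that overlapped or touched across morphs gave 148050 union regions, and a region was kept if it met a surface H3K4me3 peak and a surface H3K27ac peak and no Pachón or Tinaja peak of either mark. There were 588 such regions, called surface-only regions here, or 0.397% of the 148050. They were 2.19% of the 26867 regions with both marks in surface fish. The number depends on the lists: it was 1460 when all lists of a mark were trimmed to equal length, keeping their widest peaks, and 198 when the narrower 50% of every list was dropped. It was 360 with peaks up to 1 kb apart merged, and 342 when regions with an active cave peak within 1 kb were left out. The regions were selected on the presence or absence of H3K4me3 and H3K27ac peaks, so the absence of these marks from the caves is not a finding, and their values are given as a description. H3K27me3 was not used.

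*Astyanax mexicanus*, the Mexican tetra, lives as an eyed river form and as blind cave forms. The groups were adult livers of the surface form (labelled Surface), of the Pachon (Pachón) cave form and of the Tinaja cave form, with no genotype, treatment, sex or exact age in the labels. Each mark had 2 libraries in surface fish and 2 in Pachón fish. Tinaja fish had 3 libraries of each active mark and 2 of H3K27me3. The labels number the surface libraries of H3K4me3 and H3K27ac 1930, those of Pachón 1889 and 1934, and those of Tinaja 1934 and 2005. For the active marks, the library number and the surface form therefore cannot be told apart. The H3K27me3 libraries of all 3 morphs carried the number 2399. Each morph has 1 deposited list for each mark. Differences between morphs therefore have no spread between replicates and no test. Intervals in brackets are exact binomial (Clopper-Pearson) at 95%. They cover counting error only, and neighbouring regions are not independent.

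H3K4me3 is laid down at the starts of active genes and at many CpG-rich promoters. H3K27ac is deposited by acetyltransferases at active promoters and enhancers, and the pair of marks is typical of promoters in use. H3K27me3 is the mark of Polycomb repressive complex 2, on the same lysine residue that carries the acetyl group, so a histone H3 tail holds one or the other. Regions that hold H3K27me3 with H3K4me3 are called bivalent where both lie on the same nucleosomes. A peak list of a whole liver cannot show this, since marks from different cells, alleles or animals fall into the same list.

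Surface-only regions were narrow. Their H3K4me3 peaks had a median width of 364 bp (lowest 207, highest 1470), against 816 bp for the 20519 regions with both active marks in all 3 morphs. The latter were joined from at least 1 peak of each morph, so their widths are not those of single peaks. The median peak of these regions was wider than 25.6% of the peaks in the surface H3K4me3 list, whose own median was 494 bp. Each region held 1 surface H3K4me3 peak. This follows from the rule, which bars cave H3K4me3 peaks, since peaks of the same list did not overlap or touch. Regions with both active marks in Pachón alone (641 regions) and in Tinaja alone (12825 regions) were alike in width, with medians of 356 and 372 bp. The label of active promoter-like thus rests on the pair of marks. The data at hand did not place gene starts on the lists, so promoters could not be told from other sites with H3K4me3.

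The rule required the H3K27ac peaks to overlap the H3K4me3 peaks. The values below were not computed for other regions. The H3K27ac peaks had a median width of 440 bp (205 to 3195) and covered a median of 99.3% of the region. H3K27ac covered the whole region at 275 of 588 and at least 50% of it at 569 of 588, and it was wider than H3K4me3 at 404 of 588. The centres of the 2 peaks were a median of 34.2 bp apart. At 32 of 588 regions (5.44%) the surface H3K27ac peak met a cave H3K27ac peak further along, outside the region. At these regions both caves lacked an H3K4me3 peak, and at least 1 of them had H3K27ac beside the region.

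H3K27me3 was more frequent at these regions in surface fish than in cave fish. It was present at 148 of 588 in surface (25.2%, 21.7 to 28.9), at 55 in Pachón (9.35%, 7.12 to 12) and at 35 in Tinaja (5.95%, 4.18 to 8.18). Over all 148050 regions the lists were even, with 35.4% in surface, 35.8% in Pachón and 35.7% in Tinaja. The surface-only regions thus stood below that background in every morph, and the gap was larger for the cave lists. Over the 26867 regions with both active marks in surface fish, surface H3K27me3 was present at 16.2%.

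The surface peaks of H3K27me3 at these regions were in most cases absent from both caves. At 104 of 588 regions (17.7%, 14.7 to 21.0) H3K27me3 was listed in surface alone, against a background of 3.92% over all regions and 2.78% over the regions with both active marks in surface fish. With lists trimmed to equal length the share in surface alone was 11.6%. It was listed in all 3 morphs at 22 regions (3.74%, 2.36 to 5.61), against a background of 24.9%. Surface and Pachón shared it at 19 regions (background 3.45%), and surface and Tinaja at 3 (background 3.15%). Both caves without surface had it at 4 (background 4.4%), Pachón alone at 10 (background 3.09%) and Tinaja alone at 6 (background 3.3%). The remaining 420 (71.4%, 67.6 to 75) had no H3K27me3 peak in any morph, against 53.8% of all regions. Of the 148 regions with surface H3K27me3, 104 (70.3%, 62.2 to 77.5) thus had it in no other morph. Over all regions with surface H3K27me3 that share was 11.1%, and over those with both active marks in all 3 morphs it was 12.9% (11.8 to 14.1). It was 42.4% (39.8 to 45.2), or 565 of 1331, at regions with surface H3K4me3 alone, that is without H3K27ac and without cave peaks of either mark.

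**Figure D1:**
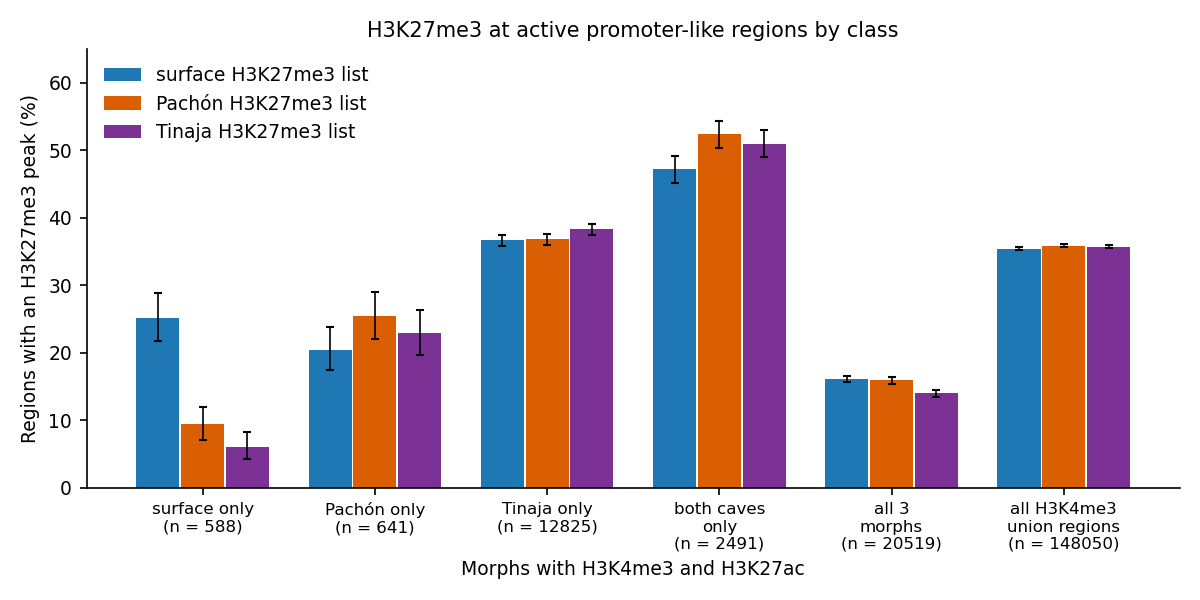
Share of regions with an H3K27me3 peak, in percent, in the surface, Pachón and Tinaja lists, for regions with H3K4me3 and H3K27ac in the morphs named on the horizontal axis and for all H3K4me3 union regions. Bars are shares and error bars exact binomial 95% intervals. At the 588 surface-only regions the surface bar stands at 25.2% above 9.35% and 5.95% for the caves, whereas the bars of the other classes shown differ less between lists. Surface H3K4me3 regions without surface H3K27ac and without cave peaks of either mark are not shown. They also had a split, at 36.0% in surface, 21.9% in Pachón and 15.3% in Tinaja.

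The corresponding classes of the caves did not show such a split, though the active-mark lists of the morphs differ in length. Pachón-only regions met surface, Pachón and Tinaja H3K27me3 at 20.4%, 25.4% and 22.9%, and Tinaja-only regions at 36.7%, 36.8% and 38.3%. H3K27me3 in the same single morph as the active marks was found at 17.7% of surface-only regions, against 5.46% (3.83 to 7.51) of Pachón-only and 4.17% (3.83 to 4.53) of Tinaja-only regions. With lists trimmed to equal length these shares were 11.6%, 5.81% and 3.53%. Of the regions with H3K27me3 of their own morph, 70.3% of surface-only regions lacked it in the other morphs, against 21.5% (15.4 to 28.6) of Pachón-only and 10.9% (10 to 11.8) of Tinaja-only regions. The 2491 regions with both active marks in both caves and neither in surface met H3K27me3 far more often, at 47.2% in surface, 52.4% in Pachón and 51.0% in Tinaja. At 36.7% of them it was listed in all 3 morphs, against 3.74% of the surface-only regions. These are comparisons of pooled lists and were not tested.

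At surface H3K4me3 regions without active cave peaks, the surface list had a higher H3K27me3 share than either cave list, with and without surface H3K27ac. The class without surface H3K27ac had the higher H3K27me3 share in the surface list and in both cave lists. Over all widths the 2 classes differed little in H3K27me3 in surface alone. At 700 bp and over, that share was 27.3% without and 48.8% with surface H3K27ac. Of the 5752 regions with H3K4me3 in surface fish and in neither cave, 1471 had a cave H3K27ac peak and are in neither class. Surface H3K27ac was present at 1142 of these 1471. Surface H3K4me3 regions without surface H3K27ac and without cave peaks of either mark numbered 3693. They met H3K27me3 at 36.0% in surface (34.5 to 37.6), 21.9% in Pachón and 15.3% in Tinaja. H3K27me3 was present in all 3 morphs at 9.53% of them (8.60 to 10.5), against 3.74% of the regions with H3K27ac. H3K27me3 in surface alone was at 15.3% of them (14.2 to 16.5), close to the 17.7% of the regions with H3K27ac, whose interval overlaps it.

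H3K27me3 listed in surface alone covered most of the H3K4me3 region, but the 3 marks did not always share most of their bases. At the 104 regions it covered a median of 92.0% of the H3K4me3 region, and at least 50% of it at 96 of 104. The bases under all 3 surface marks made up a median of 57.9% of the bases under any of them. They made up at least 50% at 61 of 104 regions (58.7%, 48.6 to 68.2), and the lowest share was 0. The widths of the surface H3K27me3 peaks, summed at each region, had a median of 438 bp. A peak over more than 1 region was counted at each. Single peaks of the whole surface list had a median width of 410 bp. At 1 of the 104 regions the surface H3K27me3 peak met a cave H3K27me3 peak outside the region. The nearest H3K27me3 peak was a median of 6450 bp away in Pachón and 5852 bp in Tinaja. This degree of coincidence was not confined to these regions: at the 3306 regions with both active marks in all 3 morphs and surface H3K27me3, the bases under all 3 surface marks were a median of 57.0% of those under any.

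The profiles around the region centres give the same values by position. Surface H3K27me3 lay over the centre of 23.5% of the 588 regions, over 4.25% at 500 bp to the left and 4.59% at 500 bp to the right. Pachón H3K27me3 lay over 8.33% of centres and over 1.70% and 1.19% of these flanks, and Tinaja H3K27me3 over 5.61%, 1.36% and 1.19%. At 3000 bp from the centre the lists were within 2.21% to 4.76% in surface, 1.53% to 4.76% in Pachón and 2.21% to 4.25% in Tinaja. At these positions the lists lay furthest apart over the centre, and their ranges overlapped at 3000 bp.

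**Figure D2:**
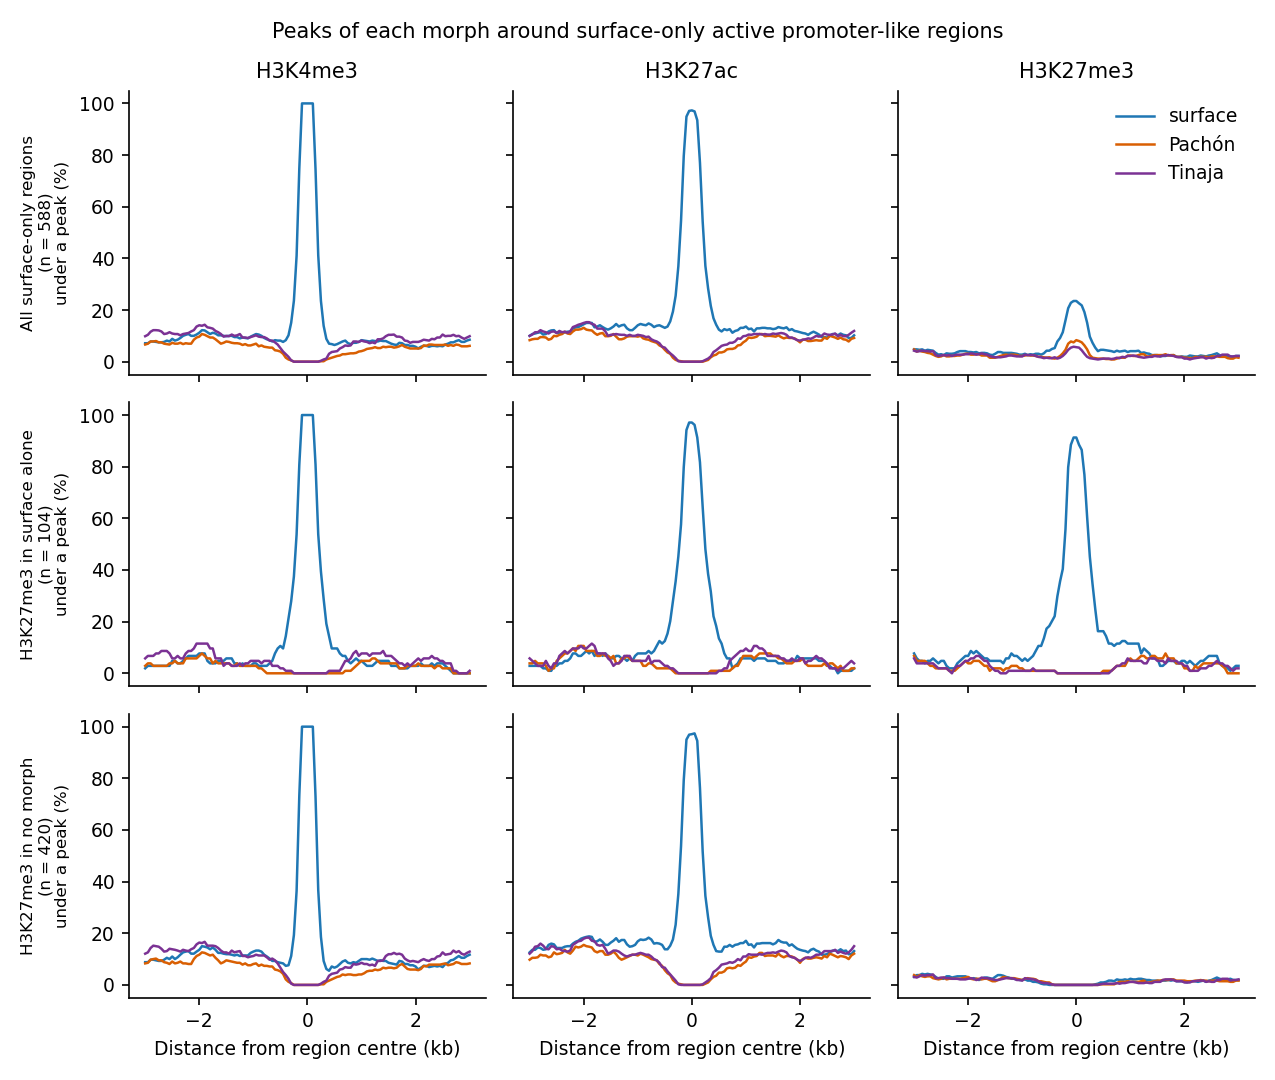
Percent of regions under a surface, Pachón or Tinaja peak at each distance from the region centre, in kb, for H3K4me3, H3K27ac and H3K27me3, in all 588 surface-only regions (top), the 104 with H3K27me3 in surface alone (middle) and the 420 with it in no morph (bottom). The cave lines of the active marks are at 0 over the centre because the regions were chosen so. In the top row surface H3K27me3 reaches 23.5% at the centre, with Pachón at 8.33% and Tinaja at 5.61%.

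Regions with H3K27me3 in surface alone were wider and lay further from active cave peaks than those with it in no morph. Their H3K4me3 peaks had a median of 418 bp (239 to 1470), against 350 bp (207 to 1447) at the 420 regions without H3K27me3, and their H3K27ac peaks 534 against 434 bp. The nearest H3K4me3 or H3K27ac peak of either cave was a median of 2895 bp away, against 1098 bp. Cave H3K27me3 peaks went the other way and were nearer. Their median gap was 6450 against 9319 bp in Pachón, and 5852 against 9627 bp in Tinaja. The share of regions on placed chromosomes was close, at 65.4% (55.4 to 74.4) and 68.8% (64.1 to 73.2).

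Surface H3K27me3 was more frequent at wider regions, both at surface-only regions and over all regions. Surface H3K27me3 was at 28 of 148 regions under 300 bp (18.9%, 13.0 to 26.2), 39 of 199 from 300 to 399 bp (19.6%) and 26 of 108 from 400 to 499 bp (24.1%). It was at 30 of 90 from 500 to 699 bp (33.3%) and 25 of 43 of 700 bp and over (58.1%, 42.1 to 73.0). Over all regions, surface H3K27me3 was at 24.3%, 30.6%, 36.1%, 38.5% and 46.3% of these width classes. At surface-only regions the Pachón share was 8.11%, 7.04%, 10.2%, 14.4% and 11.6% from the narrowest to the widest class, and the Tinaja share 7.43%, 3.52%, 4.63%, 10% and 6.98%. The intervals of both caves in the widest class were broad, at 3.89 to 25.1 in Pachón and 1.46 to 19.1 in Tinaja. H3K27me3 in surface alone was at 21 of these 43 widest regions (48.8%, 33.3 to 64.5). Regions without H3K27ac also had a higher share at this width. At surface H3K4me3 regions without H3K27ac and without active cave peaks, it was at 36 of 132 of that width (27.3%, 19.9 to 35.7), against 13.9% under 300 bp. At regions of that width with both active marks in all 3 morphs it was at 1.84% of 13226, over all regions at 2.86%, and at Pachón-only regions H3K27me3 in Pachón alone was at 3 of 44 (6.82%, 1.43 to 18.7). A wider region can meet more peaks by its length. The part of region length in this pattern was not tested.

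**Figure D3:**
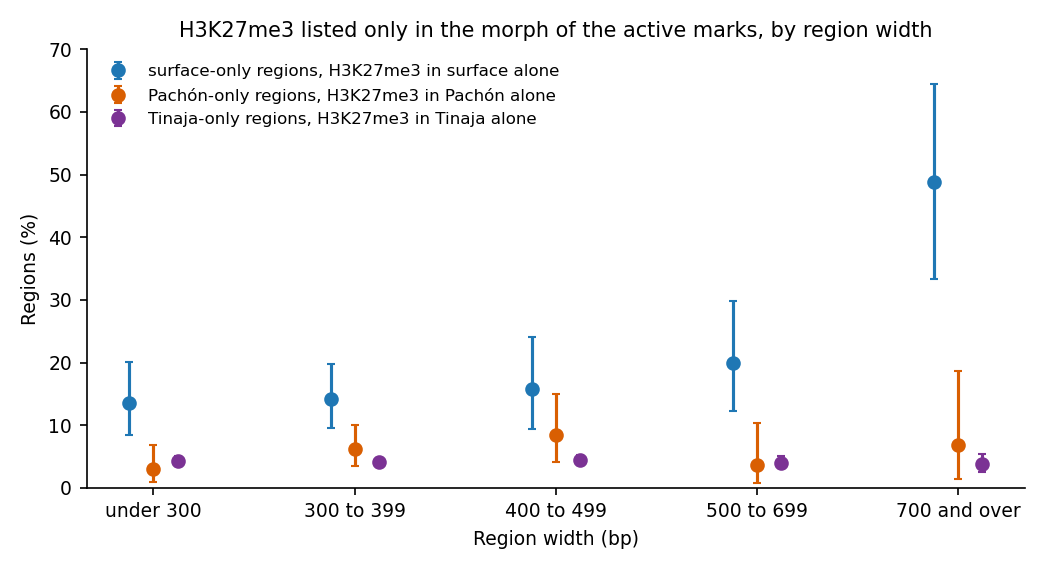
Percent of surface-only, Pachón-only and Tinaja-only regions at which H3K27me3 is listed in that same morph and no other, by region width in bp, with exact binomial 95% intervals as bars. Surface-only regions run from 13.5% under 300 bp to 48.8% at 700 bp and over, while the Tinaja-only points stay between 3.75% and 4.39% and the Pachón-only points between 2.96% and 8.40%.

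Active cave peaks lay near many of the surface-only regions, but the same gaps were not computed over all regions. The nearest Pachón peak of H3K4me3 or H3K27ac was a median of 2167 bp from the region edge (9 to 120307) and the nearest Tinaja one 1476 bp (12 to 61143). At 6 regions the sequence held no such Pachón peak, and at 6 no such Tinaja peak. Tinaja, whose lists of these marks are the longest, had the nearest peak at 401 of 588 regions. A cave peak of either active mark lay within 1 kb of 246 regions (41.8%, 37.8 to 45.9), and more than 5 kb away from 106 (18.0%, 15.0 to 21.4). Regions with both active marks in all 3 morphs were a median of 10446 bp away, over the 546 surface-only regions whose chromosome or scaffold held one. Of all 588 surface-only regions, 71 (12.1%) lay within 1 kb of such a shared region. Another 350 lay more than 5 kb from any such region on their chromosome or scaffold. The nearest active peak of the other morphs was a median of 1262 bp from surface-only regions. It was 1883 bp from Pachón-only and 3048 bp from Tinaja-only regions, and the lists compared differ in length.

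**Figure D4:**
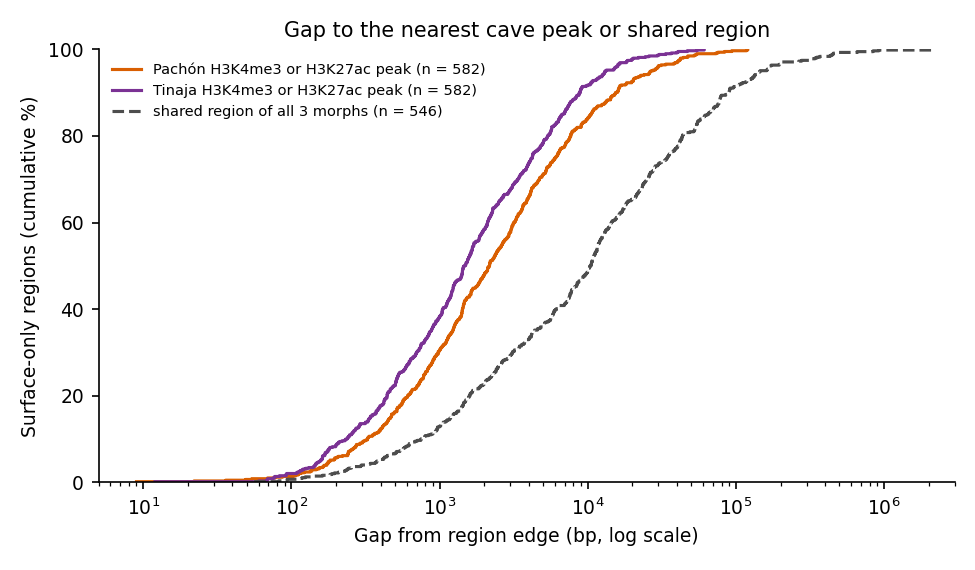
Cumulative percent of surface-only regions by the gap in bp, on a log scale, from the region edge to the nearest Pachón peak and the nearest Tinaja peak of H3K4me3 or H3K27ac, and to the nearest region with both marks in all 3 morphs. The medians are 2167 bp for Pachón, 1476 bp for Tinaja and 10446 bp for shared regions. The lines cover 582, 582 and 546 surface-only regions, those whose chromosome or scaffold holds such a peak or shared region.

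Among surface-only regions, surface H3K27me3 was more frequent further from active cave peaks. Shares by distance were not computed for other regions, so whether this is particular to surface-only regions was not tested. Among regions within 1 kb of an active cave peak, surface H3K27me3 was at 45 of 246 (18.3%, 13.7 to 23.7) and was listed in surface alone at 31 (12.6%, 8.73 to 17.4). From 1 to 5 kb the numbers were 56 of 233 (24.0%) and 39 (16.7%). Beyond 5 kb they were 46 of 106 (43.4%, 33.8 to 53.4) and 33 (31.1%, 22.5 to 40.9). Pachón H3K27me3 was at 6.91%, 9.01% and 16.0% of the same bands, and Tinaja H3K27me3 at 3.66%, 8.15% and 6.60%. Near regions with both active marks in all 3 morphs, within 1 kb, surface H3K27me3 was at 7 of 71 (9.86%, 4.06 to 19.3), against 104 of 350 (29.7%, 25 to 34.8) beyond 5 kb.

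At 504 regions no cave peak of any of the 3 marks overlapped and cave peaks bounded the region on both sides. The stretch between these flanking cave peaks had a median length of 5280 bp (590 to 91676). At 98 regions with H3K27me3 in surface alone it was 8537 bp, and at 406 with it in no morph 4943 bp. The stretch held no further surface H3K4me3 peak at 358 of 504 and no further surface H3K27ac peak at 306 of 504. These lengths and counts were not computed for other regions, so whether they are particular to surface-only regions was not tested.

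The rule turns on the overlap of 1 bp. At 17 regions just inside it, the nearest active cave peak was at most 100 bp away. The closest was 9 bp away on chromosome 25, between 17759170 and 17759834, and the next on a placed chromosome 36 bp away on chromosome 17, between 3754892 and 3755149. Just outside it, 12 regions with both surface marks had 1 to 100 bp under active cave peaks. The smallest overlaps on placed chromosomes were 3 bp on chromosome 6, between 14380038 and 14380282, 10 bp on chromosome 7, between 6695701 and 6695910, and 13 bp on chromosome 5, between 31201789 and 31202327.

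Surface-only regions were spread over the genome. They occurred on all 25 placed chromosomes, which held 397 of the 588 (67.5%, 63.6 to 71.3), against 74.1% of regions with both active marks in all 3 morphs and 70.3% of all regions. The other 191 lay on 145 unplaced scaffolds, with at most 6 on one. As a share of the regions with both active marks in surface fish, they ran from 5 of 759 on chromosome 7 (0.659%, 0.214 to 1.53) to 18 of 574 on chromosome 17 (3.14%, 1.87 to 4.91). Chromosome 22 followed with 24 of 794 (3.02%). Surface H3K27me3 was at 93 of 397 placed regions (23.4%, 19.3 to 27.9) and at 55 of 191 unplaced ones (28.8%, 22.5 to 35.8). These intervals overlapped, and the difference was not tested.

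When regions at most 50 kb apart were joined, 485 stood alone, 38 stretches held 2 and 9 held 3. The tightest stretch of 3 was on chromosome 2, between 34098763 and 34101407, where 3 regions of 446, 345 and 619 bp lay within 2645 bp with no other H3K4me3 region between them. None of them carried H3K27me3 in any morph, and active cave peaks were 787 to 1668 bp away. A stretch on chromosome 23, between 14721877 and 14733471, held 3 regions without H3K27me3 and 3 other H3K4me3 regions. A stretch on chromosome 3, between 13363882 and 13375764, mixed patterns. Its first region, of 1124 bp, had 309 bp of H3K27me3 in surface and none in the caves. Its last, of 720 bp, had H3K27me3 over 562 bp in surface, 390 bp in Pachón and 534 bp in Tinaja.

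The widest surface-only region on a placed chromosome was on chromosome 3, between 58522906 and 58524375. Its H3K4me3 peak of 1470 bp and H3K27ac peak of 1475 bp were nearly coextensive. Surface H3K27me3 covered 1099 bp of it, and neither cave had a peak of any mark over it. The flank to the left carried H3K4me3 and H3K27me3 in all 3 morphs, from 58519464 to 58520582 in surface for H3K4me3, from 58519520 to 58520564 in Pachón and from 58519446 to 58520627 in Tinaja. In Tinaja this flank also held a narrow H3K27ac peak, from 58520222 to 58520492.

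The next widest, on chromosome 25, between 36781813 and 36783259, had 1447 bp of H3K4me3 and an H3K27ac peak of 1738 bp. It had no H3K27me3 in any morph, and the nearest cave peak was 5622 bp away. On chromosome 15, between 25424129 and 25425270, a region of 1142 bp had 750 bp of surface H3K27me3. A second one on that chromosome, between 23950533 and 23951467, had none. A region of chromosome 12, from 14379061 to 14380076, had a narrow H3K27ac peak of 475 bp on H3K4me3 of 1016 bp. A region of chromosome 3, from 36278868 to 36279882, had one of 339 bp on H3K4me3 of 1015 bp. Neither had H3K27me3 in any morph. Among the 8 widest, H3K27me3 was in surface alone at 4 and in no morph at 4.

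On chromosome 24, 2 surface-only regions lay side by side, between 44031292 and 44032120 and between 44032774 and 44033836. They shared 1 surface H3K27ac peak of 2637 bp and 1 surface H3K27me3 peak of 2814 bp, and H3K27me3 covered both in full. Between them a surface H3K4me3 peak, from 44032274 to 44032727, met a Tinaja H3K4me3 peak from 44032341 to 44032627, so the whole block was not absent from Tinaja. Pachón had no peak there. Both caves carried H3K4me3, H3K27ac and H3K27me3 at a site further left, where surface fish had H3K27me3 without the active marks.

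An isolated case was on chromosome 16, between 18945700 and 18946511. Surface H3K4me3 of 812 bp, H3K27ac of 830 bp and H3K27me3 of 773 bp coincided, with 74.4% of the bases under any of them under all 3. The nearest active cave peak was 13116 bp away and the nearest cave peak of any mark 2779 bp.

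At 22 surface-only regions H3K27me3 was listed in all 3 morphs. The absence of active cave marks there follows from the rule, and the shared H3K27me3 from how the 22 were picked. At these 22 regions H3K27me3 covered a median of 86.5% in surface, 82.3% in Pachón and 82.7% in Tinaja. The region with the most H3K27me3 summed over the morphs was on chromosome 14, from 10597692 to 10598380. Surface H3K27me3 covered 594 bp of it, Pachón H3K27me3 334 bp and Tinaja H3K27me3 676 bp, and the nearest active cave peak was 7684 bp away. A region of chromosome 2, from 5332309 to 5332952, was covered over 528 bp by surface, 545 bp by Pachón and 529 bp by Tinaja H3K27me3, which is near equal. A region of chromosome 20, from 13276433 to 13277042, was covered over 579 bp by surface, 454 bp by Pachón and 559 bp by Tinaja H3K27me3. Its nearest active cave peak was 68 bp away. A region of chromosome 22, from 24843790 to 24844417, was covered over 529 bp by surface, 265 bp by Pachón and 516 bp by Tinaja H3K27me3. On chromosomes 14, 20 and 22 Pachón H3K27me3 covered the fewest bases of the region, as it did at the last region of the chromosome 3 stretch.

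**Figure D5:**
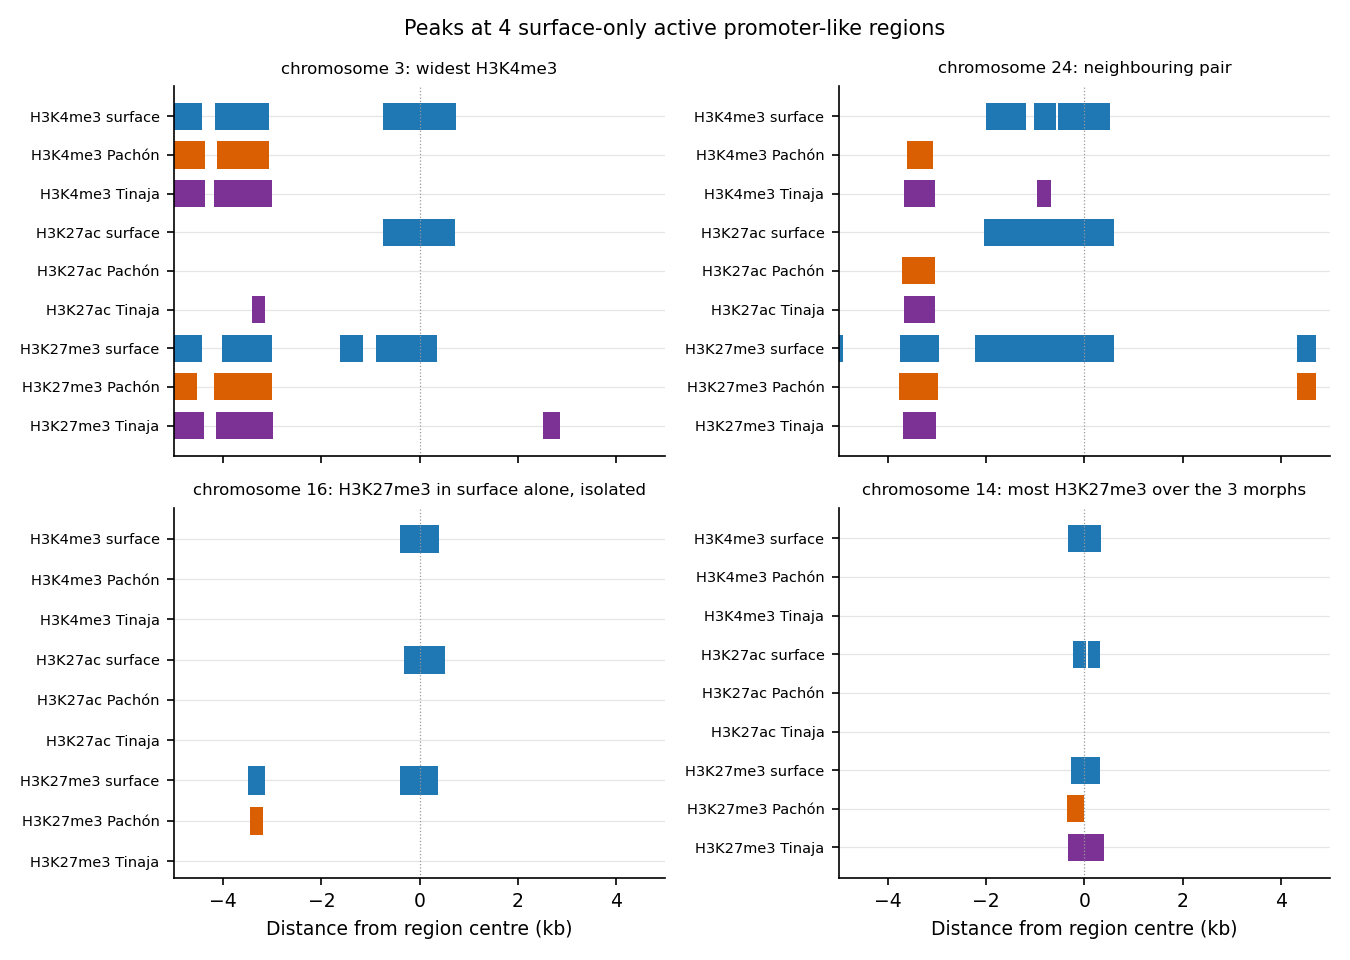
Peaks of each mark and morph, as bars to scale, by distance in kb from the region centre (dotted line), at 4 surface-only regions on chromosomes 3, 24, 16 and 14. At the first 3 the surface bars of H3K27me3 lie over the centre without a cave bar of any mark there, and at the region on chromosome 14 H3K27me3 is present in all 3 morphs while H3K4me3 and H3K27ac are in surface alone.

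Among the H3K27me3 libraries, the surface ones shared a number with the cave ones and not with the surface libraries of the active marks. Total chromatin was not analysed here, and the part that copy number, mappability and sequence differences between the morphs have in the result was not tested. Read depth is unknown, and the surface lists of H3K4me3 and H3K27ac are the shortest of their marks, with 56323 and 70089 peaks against 64432 and 93527 in Pachón and 136219 and 117125 in Tinaja. The H3K27me3 lists held 97948, 98198 and 99370 peaks.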

How the data were processed

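Livers of 3 morphs were profiled for 3 marks in 20 immunoprecipitates beside 6 total chromatin libraries. Per the submitters' processing notes, bcl2fastq 2.20, Bowtie2, SAMtools and MACS2 were used. How libraries were pooled into lists, the build, the settings and other versions are details not given in the sources used here. Deposited by the authors were 9 peak lists, 1 per morph and mark, with a score of 0 for every peak. Depth is thus unknown, and weak peaks depend on it.

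Overlap meant at least 1 bp. Positions are counted from 1. The gene table at hand (AstMex3_surface) did not match the lists, since its chromosome 1 runs to 134 Mb and their peaks there stop at 27.0 Mb. No gene or sequence is therefore given. Regions named are, on placed chromosomes, the 8 widest, the 5 with most surface-alone H3K27me3, the 5 with most H3K27me3 over all morphs and the 3 fullest stretches (ties by shortest span). The members and comparisons were chosen with earlier results of these data known. Counts, shares and gaps were computed with Python 3.11.15, NumPy 2.4.6 and SciPy 1.17.1, and figures with Matplotlib 3.10.9. Overlaps and merges, tested on simulated data, gave 0 mismatches. Alternatives were other overlap, merging, list, placement and distance rules.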

Additional observations from a re-analysis of the deposited data

How the results depend on the processing

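In all 10 settings, the one reported included, surface H3K27me3 was more frequent at surface-only regions than Pachón or Tinaja H3K27me3, and H3K27me3 of the own morph alone was more frequent at surface-only than at Pachón-only or Tinaja-only regions. Of 43 values under 7 planned and 2 added alternatives, 15 moved beyond the interval or 1.5 times the count. With the wider 50% of each list, 198 regions remained, with H3K27me3 at 6.06% in Pachón, 6.57% in Tinaja and 22.2% in surface alone. The cave shares were then nearly equal, at 12 and 13 of 198 regions, and Pachón no longer stood above Tinaja. With lists cut to the shortest of their mark, which removes narrow cave peaks, there were 1460 regions, with H3K27me3 at 20.1% in surface and at 11.6% in surface alone (5.81% and 3.53% for Pachón-only and Tinaja-only regions). With peaks up to 1 kb apart merged there were 360, with 30.6% and 21.7%. With no active cave peak within 1 kb there were 342, with 30.1% and 21.3%. With H3K27me3 counted within 1 kb, it was at 30.4% in surface, 15.8% in Pachón and 12.1% in Tinaja. The cause of each shift was not tested. H3K27me3 at the midpoint, and leaving out the 32 regions whose H3K27ac peak met cave H3K27ac, were added after the data were seen. Leaving out these 32 did not change the Pachón-only and Tinaja-only regions, so that setting does not compare the classes like for like. No paired analysis was possible because each morph and mark has 1 pooled list, and no replicate could be left out.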
